A study of Homo sapiens with 97 samples.

Results

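The nuclear fraction of HEK293T cells was compared with the cytosol fraction of the same cell line across all expressed genes, to ask which transcripts of the nuclear fraction are nuclear and which are translated at the endoplasmic reticulum (ER) and sediment with the nuclei. The comparison rests on 4 of the 97 samples of the series, 2 libraries of each fraction. Of the 60675 genes in the count table of the fractions, 19115 passed the filter on low counts and were tested. HEK293T is an established human embryonic kidney line that carries the SV40 large T antigen. The fractions were made by a published biochemical fractionation, RNA was purified on silica columns, and poly(A)-selected libraries were sequenced. The labels do not say whether the fractionated cells carried a labelling construct, nor whether the replicates came from separate dishes, so the p-values measure the spread between these libraries, which may be technical.

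The same series labelled RNA in living HEK293T cells with APEX2, a peroxidase that, with biotin-phenol and hydrogen peroxide, puts biotin on RNA close to it. Cells with peroxide (labelled) and without it (unlabelled) went through the same capture of biotinylated RNA. APEX2 with a nuclear localisation signal (NLS), APEX2 on the cytosolic face of the ER membrane (ERM) and APEX2 on the outer mitochondrial membrane (OMM) were used here, each with 2 labelled and 2 unlabelled libraries of cells stably expressing the fusion.

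In animal cells the outer nuclear membrane is continuous with the ER, and ribosomes translating secreted or membrane proteins are held on both. A detergent that opens the plasma membrane leaves the nuclei with a part of this membrane system, so a nuclear pellet can hold messages that had already left the nucleus and were being translated on its outside. Many long noncoding RNAs, incompletely spliced messages and antisense transcripts are retained inside the nucleus, whereas messages of soluble proteins are exported and translated in the cytosol. Tail-anchored proteins, whose only membrane segment lies at the end of the chain, are inserted into membranes after translation has ended.

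The 4 libraries held 34961110 to 44973261 counts. Genes of the mitochondrial genome took 9.49 to 10.3% of the counts in the cytosol fraction and 1.44 to 1.46% in the nuclear fraction. The 100 most abundant genes took 25.9 to 26.3% and 14.9 to 16.1%, and 23362 to 23835 against 28958 to 29073 genes had a count. As a check of the cell line, vimentin (VIM), NEFM and EYA1 were detected in all 4 libraries at 754 to 964, 81.5 to 93.9 and 11.9 to 15.8 in counts-per-million units (CPM), before scaling between libraries. PAX2 and LHX1, kidney progenitor genes, were near 0 at 0.114 to 0.980 and 0.610 to 2.38 on this scale. The leukocyte, fibroblast and islet markers PTPRC, DCN and INS were at 0 to 0.0244. The other fibroblast marker, COL1A1, was detected at 4.52 to 9.03, and the hepatocyte marker ALB was at 0.0488 to 0.420. The epithelial markers CDH1 and EPCAM were at 0.976 to 6.02 and 0.366 to 2.11, both higher in the nuclear libraries. The amount of RNA in each fraction was not used here, so every value compares shares of the sequenced RNA, and more of 1 transcript cannot be told apart from less of the others. All CPM below are scaled by the trimmed mean of M-values (TMM), which put the median gene at a log2 fold change of 0.11. Scaling by library totals alone moved that median by 0.55.

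Of the 19115 genes, 6535 were higher in the nuclear fraction (34.2%) and 5323 were lower (27.8%) at an adjusted p under 0.05 (edgeR's quasi-likelihood test with Benjamini-Hochberg adjustment). These shares are the background for each count of a gene group below. The share of all genes whose groups did not overlap is not given, so a lack of overlap below only describes the values. With library totals alone, 9249 genes were higher and 2580 lower. Among the 11389 genes averaging 5 CPM or more, 2807 were higher and 4437 lower, with a median log2 fold change of -0.26. When these genes were scaled and fitted without the weaker ones, the median was 0.02, with 3834 genes higher and 3428 lower. A statement that a gene group is higher or lower below therefore sets it beside the median gene.

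MALAT1, a noncoding RNA of nuclear speckles, was at 9.12 and 8.01 CPM in the cytosol fraction and at 199 and 194 CPM in the nuclear fraction. The log2 fold change was 4.52 ± 0.20 (standard error, n = 2 per group, adjusted p = 3.03e-08). NEAT1, the scaffold of paraspeckles, was at 27.1 and 27.6 CPM against 475 and 533 CPM, a log2 fold change of 4.2 ± 0.19. For both RNAs the lowest nuclear library lay far above the highest cytosol library. MEG3, also listed as a nuclear marker, did not pass the filter, and KCNQ1OT1, an antisense RNA of an imprinted locus, was at 0.80 and 1.05 against 25.4 and 25.7 CPM.

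Messages of ER proteins were higher in the nuclear fraction as well. HSPA5, the main Hsp70 chaperone of the ER lumen, was at 252 and 267 CPM in the cytosol fraction and at 1138 and 1016 CPM in the nuclear fraction, a log2 fold change of 2.05 ± 0.17 (adjusted p = 2.65e-06). The membrane-bound lectin chaperone CANX was at 571 and 539 CPM against 2024 and 1767 CPM. The 5 ER markers were 2.17-fold (SEC61A1) to 4.36-fold (HSP90B1) higher in the nuclear fraction with no overlap of the groups. Of the nuclear markers, MALAT1 and NEAT1 were 23.0- and 18.4-fold higher, and TUG1 was 2.12-fold higher, below all 5 ER markers.

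Markers of the cytosol were lower in the nuclear fraction. ACTB, cytoplasmic actin, was at 2632 and 2857 CPM in the cytosol fraction and at 766 and 625 CPM in the nuclear fraction, and GAPDH was at 3520 and 4305 against 1736 and 1484 CPM. EEF1A1, RPLP0 and TUBA1B were lower as well, by a log2 fold change of 1.45 to 1.64. All 5 had groups that did not overlap.

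**Figure D1:**
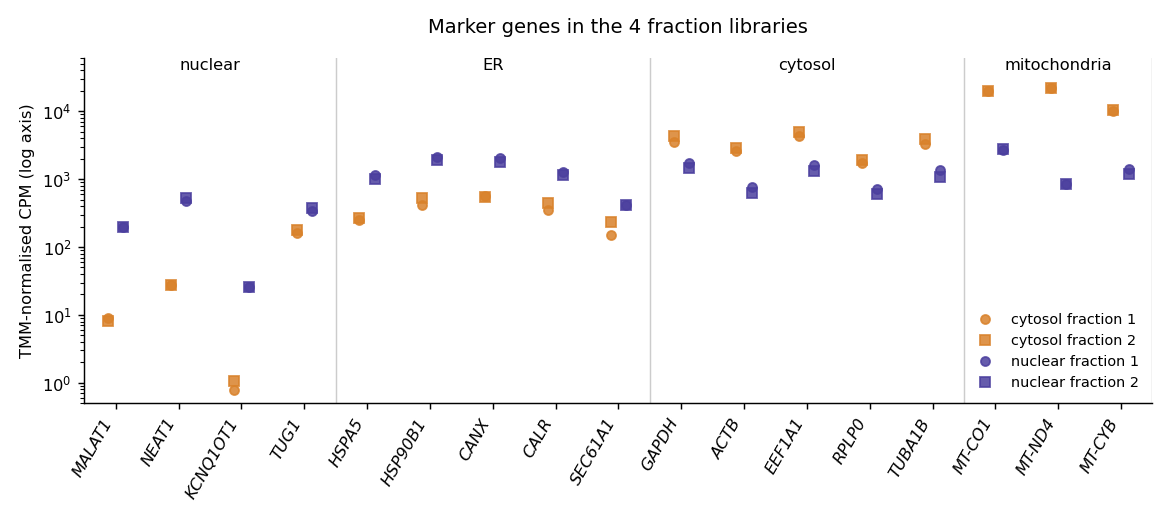
TMM-normalised CPM (log axis) of the tested nuclear, ER, cytosol and mitochondrial markers, 1 point per library; orange, cytosol fraction; violet, nuclear fraction; circles, replicate 1; squares, replicate 2. Nuclear and ER markers lie higher in both nuclear libraries (MALAT1 at 199 and 194 against 9.12 and 8.01 CPM), and cytosol and mitochondrial markers lie lower.

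The 12 genes with the highest fold change among those averaging 5 CPM or more were noncoding RNAs and protein-coding genes. Among them, MIR222HG, the host transcript of a microRNA cluster, was at 2.29 and 1.39 CPM in the cytosol fraction and 94.0 and 71.5 CPM in the nuclear fraction, with a log2 fold change of 5.49 ± 0.31 (adjusted p = 1.25e-07). SEC31B, a paralogue of a COPII coat subunit, was at 3.35 and 2.87 against 109.8 and 109.2 CPM. ASMTL-AS1, LTB4R2, PRSS53, YJEFN3, MAPK15, KCNAB3, LTB4R, PGGHG and SLC26A10 had log2 fold changes of 5.10 to 5.86. CELF3, an RNA-binding protein, rested on 1 library: it was at 20.9 CPM in nuclear fraction 1 and 0.51 CPM in nuclear fraction 2, and without the former its adjusted p was 0.185. Whether reads were counted by strand is not given in the sources used here, so ASMTL-AS1 and the overlapping LTB4R and LTB4R2 may share reads with a neighbour.

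Nuclear long noncoding RNAs were mostly higher in the nuclear fraction: of 25 tested, 17 were higher and 2 lower (NUTM2A-AS1 and DLEU2), with a median log2 fold change of 1.48 beside 0.11 over all genes. Host genes of small nucleolar RNAs, which are spliced to release those RNAs from their introns, had 15 of 22 higher and 3 lower, with the same median of 1.48. GAS5 was at 88.2 and 112 CPM against 539 and 467 CPM, whereas SNHG5 went the other way, at 250 and 275 against 118 and 93.0 CPM. SNHG16 and DANCR were the others lower. The host gene list thus held RNAs on both sides.

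Messages of splicing factors and of the CLK kinases that phosphorylate them, many of which are known to keep introns, had 29 of 45 higher and 3 lower (SRSF3, TRA2B and SRSF8), with a median of 0.75. CCNL2, a cyclin of nuclear speckles, was at 27.2 and 34.3 CPM in the cytosol fraction and at 419 and 414 CPM in the nuclear fraction. Its log2 fold change was 3.76 ± 0.19 (adjusted p = 6.01e-08). NKTR, a cyclophilin with a serine- and arginine-rich domain, was at 88.5 and 78.2 against 548 and 470 CPM, and OGT, the nuclear and cytosolic O-GlcNAc transferase, was at 165 and 139 against 883 and 755 CPM. In all 3 genes both nuclear libraries exceeded both cytosol libraries by several-fold, which their choice by p favours. SRSF7, of the same family, gave 598 and 704 against 571 and 484 CPM and was not called.

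Antisense RNAs with symbols ending in -AS1 had 164 of 404 higher and 39 lower (median 0.74), and zinc finger genes with ZNF symbols 128 of 442 higher and 43 lower (median 0.24). The ZNF share lay below the 34.2% of all genes. Immediate early genes, transcribed in bursts after a stimulus, had 6 of 26 higher and 2 lower (DUSP5 and KLF10). By gene type, 82 of 89 tested small nucleolar RNA genes and 194 of 241 sense intronic transcripts were higher, with medians of 3.87 and 2.71. Of 938 intergenic noncoding RNAs 507 were higher and 68 lower. Processed pseudogenes, copies of mature messages, ran against these classes, with 204 of 1675 higher and 953 lower. Reads of a pseudogene and its parent gene can be exchanged in counting, so pseudogene values are uncertain. The median abundance of these noncoding classes was 0.42 to 0.70 CPM, near the filter. A gene this low can pass the filter through the nuclear libraries alone and is then higher there by selection. The shares called higher in these classes were therefore partly set by the filter.

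The lists of secretory and membrane proteins were mostly higher in the nuclear fraction as well, with medians from 0.36 to 1.74. Secreted and matrix proteins had 47 of 59 higher and 0 lower (median 1.74; edgeR, adjusted p under 0.05), lysosomal proteins 46 of 54 higher and 1 lower (IDS; median 1.44), and cell surface receptors and adhesion proteins 58 of 71 higher and 0 lower (median 1.38). ER chaperones and folding enzymes had 41 of 50 higher and 0 lower (median 1.19), solute carriers 35 of 44 higher and 1 lower (SLC44A1; median 0.97), and proteins of the Golgi, of GPI anchors and of glycan synthesis 40 of 61 higher and 2 lower (median 0.87). Membrane proteins of the nuclear envelope had 20 of 25 higher and 2 lower (EMD and TMPO; median 0.97). Over the 9 lists of this kind together, 331 of 451 genes (73.4%) were higher and 18 lower, and none of these 9 lists changed the sign of its median under the alternatives tried.

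The 3 members given next were chosen for having some of the smallest p of their lists. NOTCH2, a receptor of cell contact signalling, was at 74.2 and 62.1 CPM in the cytosol fraction and at 288 and 295 CPM in the nuclear fraction, and LMAN1, a cargo receptor between ER and Golgi, at 83.9 and 80.1 against 281 and 245 CPM. LAMB2, a laminin chain, was at 9.52 and 10.3 against 133 and 154 CPM. In each of the 3 the groups were far apart and the replicates close, which a choice by p favours. In the labelling, NOTCH2 and LMAN1 were called higher with ERM, by log2 fold changes of 2.11 and 1.74, and were not called with NLS. LAMB2 was called higher with NLS (1.03; edgeR, adjusted p = 0.0276) and was not called with ERM (0.20, adjusted p = 0.831).

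Sterol and lipid synthesis was divided, with 27 of 50 genes higher and 6 lower (median 0.55). SOAT1, a sterol acyltransferase that spans the membrane several times, was among the higher ones. IDI1, a soluble enzyme of isoprenoid synthesis, and FDFT1, squalene synthase held by a tail segment, were among the lower ones. FDFT1 was at 203 and 262 CPM against 106 and 88.7 CPM. SCD, the desaturase of fatty acids, was at 496 and 583 against 997 and 880 CPM, and SQLE, squalene epoxidase, was at 89.0 and 129 against 150 and 150 CPM and was not called (adjusted p = 0.0555; without cytosol fraction 2 it was 0.0027).

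The machinery that moves and glycosylates proteins at the ER was divided too: 19 of 39 genes were higher and 6 lower, with a median of 0.36. EMC1 and RPN1, subunits of the membrane protein insertase and of the oligosaccharyltransferase, were at 40.8 and 45.5 against 168 and 167 CPM and at 225 and 218 against 630 and 563 CPM. SEC61B, SEC61G and OST4, subunits of the translocon and the oligosaccharyltransferase, were at 125 and 145, 190 and 212, and 139 and 197 CPM in the cytosol fraction. In the nuclear fraction they were at 72.3 and 60.8, 71.9 and 54.6, and 55.0 and 48.1 CPM. SSR3, TMEM258 and OSTC were the others lower. EMC7, a subunit of the insertase with 242 codons, was at 27.6 and 26.9 against 86.7 and 86.1 CPM. Size was not tested as a property of these subunits.

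**Figure D2:**
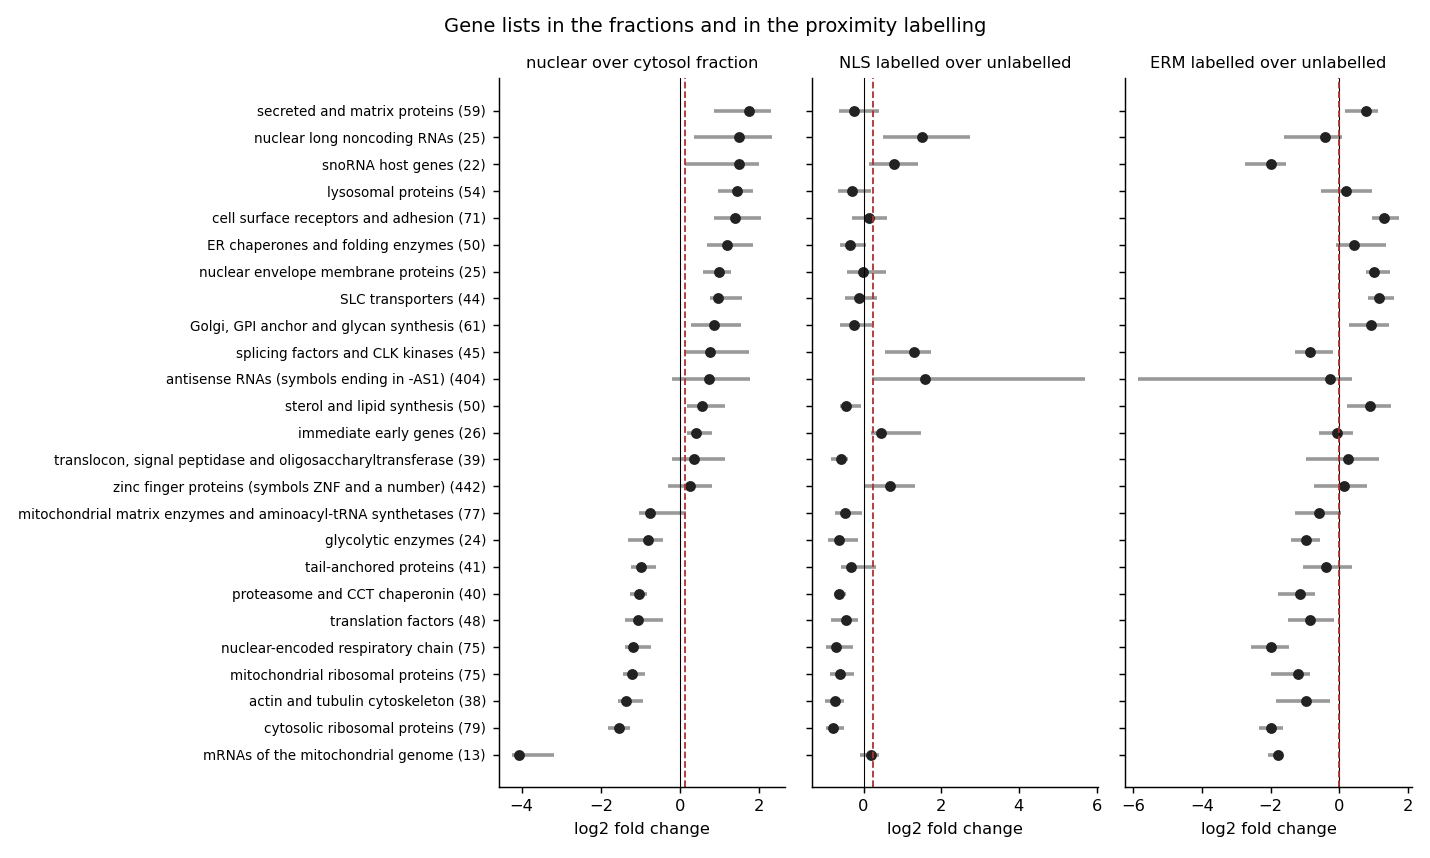
Median (point) and interquartile range (bar) of the log2 fold change of the tested genes of each list, with the number tested in the fractions in brackets, in the fractions (left), NLS labelling (middle) and ERM labelling (right); dashed lines mark the median of all tested genes. Nuclear noncoding RNAs and secreted proteins have medians of 1.48 and 1.74 in the fractions, 1.5 and -0.25 with NLS, and -0.41 and 0.78 with ERM.

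Labelling in living cells separated the groups that fractionation had placed together. Log2 fold changes of labelled over unlabelled cells with NLS had medians of 1.5 for nuclear long noncoding RNAs and 1.31 for splicing factors and CLK kinases, against -0.25 for secreted proteins, -0.36 for ER chaperones and -0.10 for solute carriers. With ERM the order turned, with -0.41 and -0.86 against 0.78, 0.44 and 1.16. The median over the tested genes was 0.24 with NLS and -0.01 with ERM. NLS labelling called 30 of the 45 splicing genes higher, where 2.78% of 22680 genes were called, but only 6 of the 25 nuclear long noncoding RNAs. ERM labelling, with 5.26% of genes called higher, called 40 of the 71 receptors, 11 of the 59 secreted and 13 of the 54 lysosomal proteins higher. Of the 39 genes of the translocon and glycosylation list it called 14 higher and 9 lower. OMM labelling, with 3.0% of genes called higher, called 33 of the 71 receptors, 23 of the 59 secreted and 17 of the 54 lysosomal proteins higher.

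MALAT1 was at 5.44 and 15.4 CPM in the NLS unlabelled libraries and at 125 and 136 CPM in the NLS labelled ones, and at 33.7 and 33.8 CPM against 40.2 and 16.3 CPM with ERM. CANX was at 1297 and 1330 CPM against 830 and 808 CPM with NLS, and at 1347 and 1197 CPM against 5966 and 4936 CPM with ERM. The 2 messages, both higher in the nuclear fraction, moved apart in the labelling. HSPA5 was lower with NLS, at a log2 fold change of -0.66 (edgeR, adjusted p = 0.0277), and was not called with ERM (0.27, adjusted p = 0.391). Its call in the test of NLS against ERM was lost without 1 or more of the 8 construct libraries.

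Genes were classed by the test of NLS against ERM labelling, the difference of the 2 labelled-over-unlabelled contrasts. Over 22680 genes, 4.62% were called higher with NLS and 2.91% higher with ERM. The first are called nuclear-labelled and the second ER-labelled below. Of the 6535 genes higher in the nuclear fraction, 491 were nuclear-labelled and 291 ER-labelled, 5593 had no call, and 160 were not tested with the constructs. Genes averaging 5 CPM or more gave 382 nuclear-labelled and 290 ER-labelled of 2807, with 2135 uncalled. The number of nuclear-labelled genes among the 6535 fell to 309 without ERM labelled 1, 327 without ERM unlabelled 2 and 285 without NLS unlabelled 1. With 2 separate tests in place of the difference, 438 genes were called higher with NLS alone, 480 with ERM alone and 59 with both.

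In the 2 nuclear libraries, nuclear-labelled genes of the higher group held 8.21 and 8.51% of all counts, and ER-labelled genes of that group held 6.56 and 6.75%. In the cytosol libraries the shares were 1.6 and 1.64%, and 1.86 and 1.79%. A larger nuclear share was set by the choice of genes called higher in these same libraries. Nuclear-labelled genes lower in the nuclear fraction held 23.4 and 23.4% of the cytosol counts and 9.09 and 8.17% of the nuclear counts. For the lower ER-labelled genes the shares were 3.11 and 2.86%, and 2.13 and 2.11%. Uncalled genes of the higher group held 15.8 and 17.2% of the nuclear counts.

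**Figure D3:**
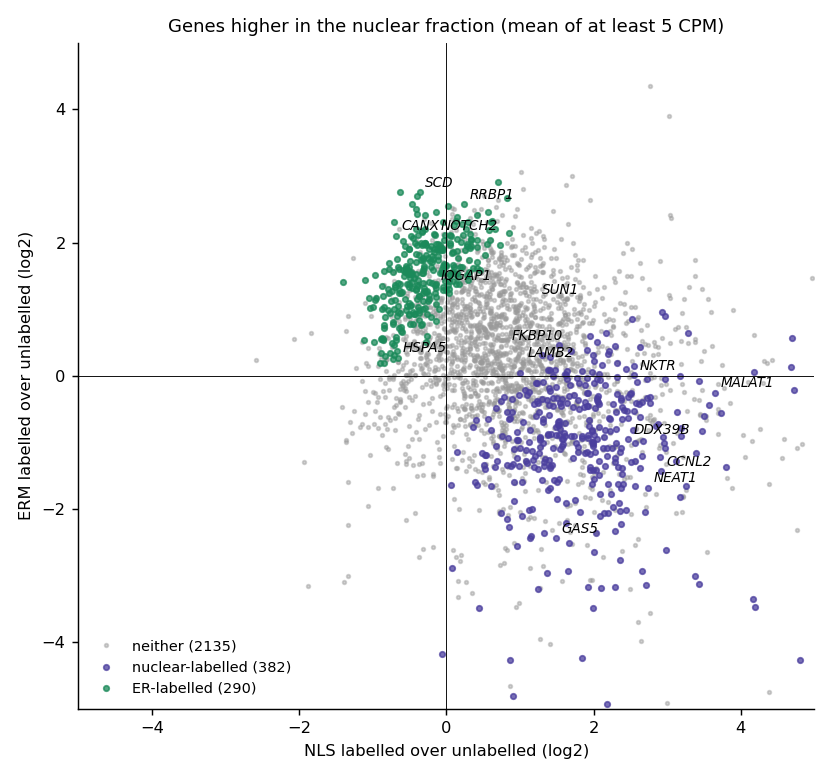
Log2 fold change with NLS (x axis) and ERM (y axis) labelling of the 2807 genes higher in the nuclear fraction averaging 5 CPM or more, 1 point per gene, coloured by class; 67 genes lie outside the axes. The 382 nuclear-labelled genes lie to the lower right and the 290 ER-labelled genes to the upper left, with 2135 uncalled genes between them. The test that classes the genes sets on which side of the diagonal each class lies.

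The 491 nuclear-labelled genes had median log2 fold changes of 1.96 in the fractions, 2.13 with NLS and -1.28 with ERM. These genes were chosen by their calls, which set the sign of the first value and place the NLS value above the ERM value. Of the 491, 273 were called higher in the separate test of NLS labelling, whatever their ERM call, and the rest were not. In the separate test of ERM labelling, 167 were called lower. The 10 highest in the fractions, among those averaging 5 CPM or more, included PGGHG, a glucosidase acting on collagen hydroxylysine, at 1.23 and 1.11 against 32.7 and 50.1 CPM, and LTB4R, a leukotriene receptor, at 1.56 and 1.91 against 49.2 and 74.1 CPM. LTB4R, although it encodes a membrane protein, was at 7.60 and 7.99 CPM in NLS unlabelled and at 142 and 139 CPM in NLS labelled cells, a log2 fold change of 4.17 ± 0.86 (edgeR, adjusted p = 0.00181). With ERM it was at 23.9 and 14.4 CPM without and at 0 and 3.70 CPM with peroxide. FAM229A and SLC9A3-AS1 were also among the 10 and kept their class without any single library. YJEFN3, MAPK15, SEC31B, NPEPL1 and LINC01355 lost it without 1 or more of the 8 construct libraries, and LY6G5B and LINC01355 had no count in the ERM labelled libraries. DDX39B, a helicase of mRNA export, was 3.97-fold higher in the nuclear fraction, at 131 and 141 against 514 and 566 CPM, with 2.47 for NLS and -0.95 for ERM on the log2 scale.

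The nuclear-labelled class also held 347 genes lower in the nuclear fraction. Of these, 341 were called lower with ERM and 4 higher with NLS, and 104 belonged to the lists of ribosomal proteins, respiratory chain, mitochondrial ribosome and mitochondrial genome. RPL32, a ribosomal protein gene, was at 2041 and 2522 CPM in the cytosol fraction and at 526 and 422 CPM in the nuclear fraction, with -0.79 for NLS and -2.43 for ERM on the log2 scale. A nuclear-labelled call therefore did not by itself go with a higher nuclear fraction. Of 545 genes higher with NLS and not with ERM, 438 were higher and 5 lower in the nuclear fraction.

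The 291 ER-labelled genes of the nuclear fraction had medians of 1.23 in the fractions, -0.32 with NLS and 1.54 with ERM. The choice of these genes by their calls set the sign of the first value and the order of NLS and ERM. RRBP1, the ribosome-binding protein of the rough ER, was at 13.5 and 16.3 CPM in the cytosol fraction and at 90.3 and 121 CPM in the nuclear fraction, with a log2 fold change of 2.83 ± 0.22 (adjusted p = 2.15e-06). With ERM it rose from 85 and 95.3 CPM to 514 and 558 CPM. IGF2R, the receptor that carries lysosomal enzymes, was at 37.2 and 38.0 against 206 and 254 CPM, and VCAN, FBN2 and COL4A2, proteins of the extracellular matrix, had log2 fold changes of 2.34 to 2.78. Groups without overlap were a condition for naming these genes. GANAB, a glucosidase of the ER lumen, and PTPRS, a receptor phosphatase, completed the secretory members of the 10 highest. UTRN, FBN2, LIMA1 and PTPRS lost the ER-labelled call without 1 or more construct libraries.

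The 2 highest ER-labelled genes of the nuclear fraction, IQGAP1 and UTRN, do not encode membrane-spanning or secreted proteins. IQGAP1, a large scaffold of the actin cortex, was at 42.7 and 56.3 CPM in the cytosol fraction and at 586 and 513 CPM in the nuclear fraction, a log2 fold change of 3.47 ± 0.20 (adjusted p = 1.64e-07). It was at 308 and 272 CPM in ERM unlabelled and at 730 and 766 CPM in ERM labelled cells. UTRN, which links actin to the membrane dystroglycan complex, was at 13.7 and 12 against 141 and 124 CPM. VCL, of adhesion sites, and UFL1, a ligase of the ER surface, were at 72.7 and 56.5 against 315 and 290 CPM and at 26.2 and 21.0 against 102 and 81.7 CPM; both were named after their values were seen. ACTN4, an actin crosslinker, was 4.27-fold higher in the nuclear fraction without an ERM call (edgeR, adjusted p = 0.123). All 5 had groups that did not overlap, which was a condition for naming IQGAP1 and UTRN.

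A further 165 ER-labelled genes were lower in the nuclear fraction, with medians of -1.06 in the fractions, -0.51 with NLS and 0.81 with ERM. Here too the calls set the sign of the first value and the order of NLS and ERM. KCTD20 was at 214 and 230 CPM against 44.7 and 54.6 CPM, and MTPN, a small ankyrin repeat protein, was at 546 and 465 against 148 and 110 CPM. NRAS, a small GTPase anchored by lipids, was at 207 and 188 against 60.9 and 54.1 CPM. All 3 were higher with ERM, by log2 fold changes of 1.10, 0.83 and 0.76. ER-labelled genes therefore lay on both sides of the fractionation, and 205 more were not called.

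The sequence of the encoded proteins, which no readout of the series used, differed between these groups. A hydrophobic stretch long enough to span a membrane is what directs many proteins to the ER. A segment was called hydrophobic where 19 residues in a row, translated from the GENCODE 29 coding sequence, had a mean Kyte-Doolittle hydropathy of at least 1.6. The coding stretch with the highest mean is shown for 6 genes to let the difference be read, 57 bases from 5′ to 3′. Capitals mark T at the middle base of a codon, the codons of phenylalanine, leucine, isoleucine, methionine and valine.
RRBP1: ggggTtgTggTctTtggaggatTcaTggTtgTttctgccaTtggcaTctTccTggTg
TFRC: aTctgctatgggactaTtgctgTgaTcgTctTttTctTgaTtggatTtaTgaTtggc
SEC61B: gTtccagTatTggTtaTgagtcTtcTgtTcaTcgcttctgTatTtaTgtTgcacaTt
VAPA: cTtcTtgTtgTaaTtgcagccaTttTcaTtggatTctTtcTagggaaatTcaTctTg
IQGAP1: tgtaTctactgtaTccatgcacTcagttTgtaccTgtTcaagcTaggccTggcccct
ACTB: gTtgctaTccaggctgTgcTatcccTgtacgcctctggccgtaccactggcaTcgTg
The stretches of RRBP1, TFRC (the transferrin receptor), SEC61B and VAPA (a membrane contact protein) hold 12 to 14 such codons of 19, those of IQGAP1 and ACTB 8 and 7. In RRBP1 the stretch covers codons 10 to 28 of 977 and in TFRC codons 66 to 84 of 760. In SEC61B 7 codons follow it and in VAPA 0. In GRCh38 the genes are RRBP1 (chr20:17613678-17682295, minus strand), TFRC (chr3:196027183-196082189, minus), SEC61B (chr9:99222064-99230615, plus), VAPA (chr18:9914002-9960021, plus), IQGAP1 (chr15:90388218-90502243, plus) and ACTB (chr7:5527147-5563784, minus). All stretches are exonic coding sequence on the gene's own strand.

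Of the ER-labelled genes higher in the nuclear fraction, 245 of 288 with a coding sequence had a hydrophobic segment (85.1%, 95% Wilson interval 80.5 to 88.7%). The share was 78.9% of the uncalled and 28.2% of the lower ER-labelled genes. Of the nuclear-labelled genes higher in the nuclear fraction, 85 of 368 had a segment (23.1%, 19.1 to 27.7%). At a cut of 1.8 this share was 13.3%, and that of the higher ER-labelled genes 80.2%. Of the uncalled and the lower nuclear-labelled genes, 15.7% and 10.4% had a segment at the cut of 1.6. Among genes of neither class, 53.4% of the higher, 31.2% of the uncalled and 16.1% of the lower genes had one. The intervals treat genes as independent, which they are not. Signal peptides can fall short of the cut, so secreted proteins without a segment occur: VCAN and FBN2 had highest means of 1.33 and 1.57. Of the 43 ER-labelled, higher genes without a segment, IQGAP1 and UTRN had the largest fold in the fractions.

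**Figure D4:**
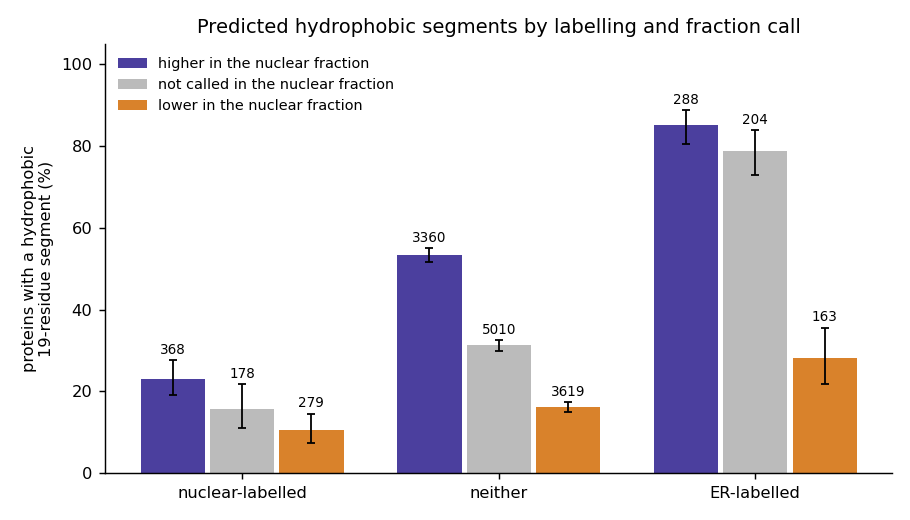
Share of proteins (%) with a hydrophobic 19-residue segment by labelling class (x axis) and call in the fractions (colour); bars start at 0, error bars are 95% Wilson intervals, and numbers above them count the proteins. The share is 85.1% in ER-labelled genes higher in the nuclear fraction, 28.2% in those lower, and 23.1% in nuclear-labelled genes higher in it.

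Over all protein-coding genes averaging 5 CPM or more, 1298 of 3101 genes with a segment were higher (41.9%) and 19.6% lower, with a median log2 fold change of 0.36. Of 7175 genes without one, 17.3% were higher and 45% lower, with a median of -0.44. With NLS the medians were 0.02 and 0.00 and with ERM 0.47 and -0.14, from other libraries. The difference was also seen in genes that the labelling left unclassed: 989 of 2533 with a segment (39.0%) against 940 of 6337 without (14.8%) were higher in the nuclear fraction.

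Coding length moved with the fractions too, so the segment was compared within 5 bins of coding length with about equal numbers of genes. Genes without a segment had medians of -1.07, -0.69, -0.39, -0.17 and 0.19 from the shortest bin (25 to 256 codons) to the longest (857 to 8923 codons). Genes with a segment had -0.27, 0.17, 0.60, 0.49 and 0.70. The median was higher with a segment in each of the 5 bins, and medians rose from bin to bin in both groups, except from 0.60 to 0.49 with a segment. Across the 10276 genes, which are not independent replicates, the log2 fold change in the fractions had a Pearson r of 0.61 with that of NLS labelling and 0.19 with that of ERM labelling. The rank correlations (Spearman) were 0.59 and 0.31.

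**Figure D5:**
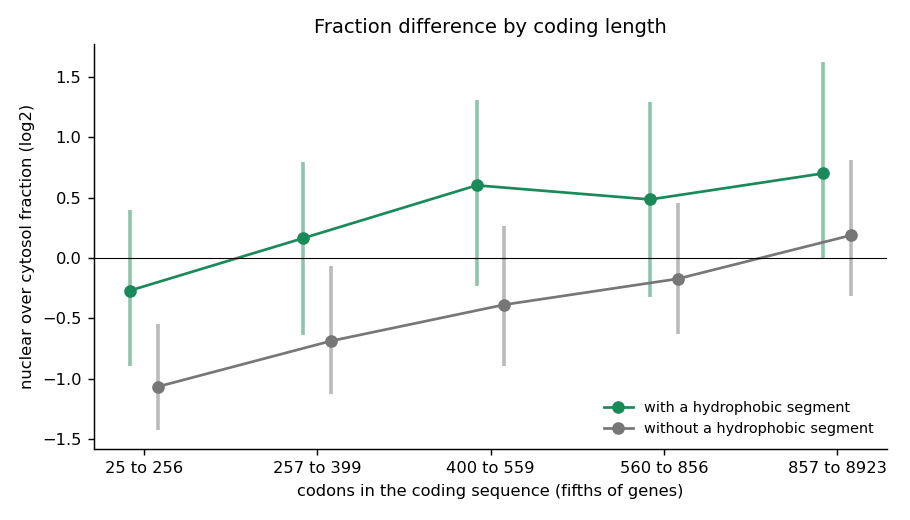
Median log2 fold change of nuclear over cytosol fraction (point) and interquartile range (bar) by bin of coding length, for protein-coding genes averaging 5 CPM or more with and without a hydrophobic segment. Medians run from -0.27 to 0.70 with a segment and from -1.07 to 0.19 without one.

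Genes were also grouped by the place of the segment in the protein. In 193 genes the first segment ended within 30 codons of the stop. Their median log2 fold change was -0.53, with 23.3% higher and 48.2% lower. The other 2908 genes with a segment had a median of 0.40, with 43.1% higher and 17.7% lower. With coding sequences limited to 901 codons, the medians were -0.66 for 173 genes and 0.31 for 2198 genes, beside -0.56 for 6053 genes without a segment. This grouping was chosen after the data were seen.

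Tail-anchored proteins were lower in the nuclear fraction, with 32 of 41 lower and 2 higher (STX16 and RHOT2) and a median of -0.98. VAMP3, a SNARE of endosomes, was at 173 and 183 CPM in the cytosol fraction and at 58.4 and 49.6 CPM in the nuclear fraction, a log2 fold change of -1.72 ± 0.18 (edgeR, adjusted p = 8.77e-06). VAPA was at 130 and 124 against 57.0 and 51.6 CPM, and TOMM22, a receptor of mitochondrial import, at 215 and 242 against 76.2 and 63.5 CPM. The groups did not overlap for these 3, of which VAMP3 and TOMM22 were chosen by p. STX16, a SNARE of the Golgi, was at 48.4 and 50.5 against 138 and 160 CPM and was also higher with NLS, by 1.19 on the log2 scale. With ERM, 2 of the 41 were higher and 9 lower.

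Messages of soluble cytosolic proteins were mostly lower in the nuclear fraction. Cytosolic ribosomal proteins had 72 of 79 lower and 2 higher (median -1.54), proteasome and CCT subunits 38 of 40 lower and 0 higher (median -1.05), and actin and tubulin genes 33 of 38 lower and 2 higher (ACTN4 and MYH10; median -1.37). Translation factors had 36 of 48 lower and 3 higher (EIF3A, EIF4G1 and EIF4A2), and glycolytic enzymes 17 of 24 lower and 1 higher. EIF3I, a subunit of an initiation factor, was at 907 and 979 CPM against 144 and 136 CPM, a log2 fold change of -2.75 ± 0.17 (edgeR, adjusted p = 3.56e-07). RPS28 and RPL36A were the 2 ribosomal genes that were higher, and reads of ribosomal genes can be exchanged with their many pseudogenes.

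Messages of mitochondrial proteins encoded in the nucleus were mostly lower in the nuclear fraction. The respiratory chain had 68 of 75 lower and 1 higher, mitochondrial ribosomal proteins 69 of 75 lower and 3 higher, and matrix enzymes with aminoacyl-tRNA synthetases 47 of 77 lower and 11 higher. These 11 were 14.3% of their list, below the 34.2% of all genes. AASS and ALDH18A1, given below, were strongly labelled at the outer mitochondrial membrane. There 3.0% of 22680 genes were called higher. How many of the 11 were called there was not counted. OMM labelling was not particular to mitochondrial messages. It called 15 of these 77 genes higher, and also 23 of the 59 secreted proteins and 23 of the 50 ER chaperones. AASS, of lysine breakdown, was at 10.5 and 7.18 CPM against 51.1 and 57.4 CPM in the fractions and had an OMM log2 fold change of 3.82 ± 0.36 (edgeR, adjusted p = 6.18e-09). ALDH18A1, of proline synthesis, was at 167 and 177 against 460.1 and 370 CPM, with 3.32 at OMM. It was also in the ER-labelled class, with 0.49 for ERM. LARS2, the mitochondrial leucyl-tRNA synthetase, was at 169 and 191 against 176 and 153 CPM and was not called in the fractions, although its OMM value was 3.45. ACADVL, of fatty acid oxidation, was higher in the nuclear fraction by 2.83, with 1.66 for NLS and -0.25 for OMM on the log2 scale.

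RNAs of the mitochondrial genome were among the lowest in the nuclear fraction. Of its 13 messages, 12 were lower and 1 higher, with a median of -4.06. MT-ATP6, of the ATP synthase, was at 9044 and 8583 CPM in the cytosol fraction and at 337 and 332 CPM in the nuclear fraction, a log2 fold change of -4.72 ± 0.20 (edgeR, adjusted p = 3.03e-08). MT-ND6, the only message on the light strand, was at 18.5 and 28.9 against 142 and 169 CPM, and NLS labelling raised it by 2.04 on the log2 scale. Both nuclear libraries lay above both cytosol libraries for MT-ND6 and far below for MT-ATP6. MT-ND6 reads cannot be told apart from antisense reads if counting was without strand. Among genes averaging 5 CPM or more whose groups did not overlap, the 12 lowest were 8 mitochondrial genes, the nuclear copies MTATP6P1 and MTND2P28, RPS4XP7 and GSC. GSC rested on cytosol fraction 2, with 24.9 CPM there and 0.962 CPM in cytosol fraction 1, and without it the value was -0.58. RPS4XP7 was at -4.65 with all libraries and at -1.99 without cytosol fraction 2.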

How the data were processed

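Poly(A) RNA of HEK293T fractions and APEX2-labelled cells was measured by sequencing. The authors deposited whole-number read counts per gene in 2 tables, and per the submitters' processing notes Trimmomatic, STAR, HTSeq, SAMtools, bedtools and DESeq2 were used with GRCh38. Strand and multimapping settings are not given in the sources used here. Symbols came from GENCODE 29 by gene identifier.

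Counts were filtered (filterByExpr, minimum 10), TMM-scaled and fitted in edgeR 4.0.16 (R 4.3.3) by the quasi-likelihood test with Benjamini-Hochberg adjustment over all tested genes. The 4 fraction libraries were fitted alone and the 36 construct libraries together, without a replicate block. Samples were grouped by their labels. The fit was tested on simulated data: of genes changed 2-, 4- and 8-fold in the fractions, 58.2, 88.1 and 93.9% were recovered. In fits of 4 libraries the shares were 20.9, 50.7 and 54.5% for NLS and 10.4, 34.3 and 56.1% for ERM. Many changes in labelling can go uncalled in such fits. The fit of 36 libraries and the test of NLS against ERM, which gave the labelling calls, were not simulated, so their recovery is not known. Coding sequences of 1 GENCODE 29 transcript per gene were translated. Python 3.11.15 was used for summaries.

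Members and lists were chosen with earlier results of these data known. Named genes were the 12 highest and 12 lowest averaging 5 CPM or more with no overlap of groups, the 10 highest of each labelling class, up to 4 members of each list by p, and markers. Members named as exceptions of a list, VCL, UFL1, ACTN4 and the matrix enzymes were chosen after their values were seen. A gene that this rule names is withheld and is not reported here. Alternatives were other scalings, filters, DESeq2 1.42.0, a fold minimum, a replicate block and leaving out each library.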

Additional observations from a re-analysis of the deposited data

Results flagged for a closer look

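NLS and ERM labelling differed by a test of the difference itself, in a single edgeR model with Benjamini-Hochberg adjustment, for 1048 genes with the higher value for NLS and 661 with the higher value for ERM. The named genes below had counts in all 8 construct libraries of the test and were called with each of these left out. The difference of NLS minus ERM on the log2 scale was 5.17 for SLC9A3-AS1, 4.42 for NEAT1, 4.39 for PGGHG, 4.28 for FAM229A and 3.91 for MALAT1. On the other side it was -2.78 for CANX, -2.33 for RRBP1, -2.11 for SEC61A1, -2.09 for VCAN, -2.06 for COL4A2, -2.0 for GANAB, -1.52 for IQGAP1 and -1.47 for IGF2R. These 13 were chosen among genes high in the nuclear fraction and among markers. Of all nuclear-labelled genes 347 of 1047, and of all ER-labelled genes 165 of 661, were lower in the nuclear fraction. Groups of 2 libraries were not checked for single deviating values.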

How the results depend on the processing

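The genes higher in the nuclear fraction numbered 3834 when only genes averaging 5 CPM or more were fitted, and 4796 to 6913 with 1 library left out. The genes lower in it numbered 2580 with library totals only, 3517 without a filter, 3428 at 5 CPM, 3306 with a minimum log2 change of 1 added, and 3654 to 5494 with 1 library left out. NLS labelling called 1179 genes, against 2203 by DESeq2, 4788 with only its own libraries and 439 to 647 with 1 library left out. ERM labelling called 2917 genes, against 1857 with only its own libraries and 1929 to 3105 with 1 left out. NLS against ERM called 1709 genes, 2904 by DESeq2 and 1014 to 2248 with 1 left out. The nuclear-labelled genes of the nuclear fraction numbered 491, 976 by DESeq2 and 285 to 591 with 1 left out. The ER-labelled ones numbered 291, 480 by 2 separate tests, 183 with that minimum and 206 to 303 with 1 left out. At a hydropathy of 1.8 the shares with a segment were 13.3% and 80.2%. LARS2 turned to 0.42 with library totals and 0.14 at 5 CPM, and SRSF7 and TOMM20 turned to 0.25 and 0.17 with library totals. Library totals moved the median log2 fold change of genes averaging 5 CPM or more up by 0.55, and the 5 CPM fit moved it up by 0.28. A cause beyond this scaling was not tested. COL4A2 lost its call in the fractions without a filter (adjusted p = 0.0686).

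Equal replicate numbers are not said to mark a shared dish, and same-numbered libraries correlated at 0.156 in the fractions, -0.01 for NLS and 0.03 for ERM. With a replicate block, 6700 genes were higher and 5416 lower in the nuclear fraction, and 1306 were called with NLS, 2984 with ERM and 1798 for NLS against ERM. The split then held 502 nuclear-labelled and 305 ER-labelled genes with the block in the fractions, and 514 and 304 with it in the labelling.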
